A study of Mus musculus with 4 samples.

Results

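The genes described here are 41 mouse histone lysine methyltransferases (writers) and histone lysine demethylases (erasers) outside the SMYD family, 27 writers and 14 erasers, of 21938 protein-coding genes in the annotation. They were chosen by name, from a list of enzymes, with earlier results of these data known. All 41 symbols were found in GENCODE release M21. Open chromatin was profiled by ATAC-seq, in which the Tn5 transposase cuts DNA that nucleosomes leave free, in hearts of mouse embryos at E9.5. The hearts were wild type (WT) or homozygous null for *Smyd1* (*Smyd1-KO*), which encodes a muscle-specific histone methyltransferase. Each genotype had 2 libraries, so 4 in all, and each library came from 4 pooled hearts, of which 40000 viable cells were used. The labels name no further allele and no treatment. Whole hearts were dissociated without a sort, so a change in the mix of cell types and a change in open chromatin within a cell type cannot be told apart in these data.

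Accessible peaks whose tags were 2-fold or more higher in *Smyd1-KO* than in WT hearts are called gained peaks here, and there were 25745 of them. The list of WT-enriched peaks, which differed as much in the other direction, held 106. Every peak is 149 bp wide. Its score is the authors' tag value for it, from the combined libraries of its genotype. All 25745 scores of the gained list are multiples of 0.5 and 12856 are whole numbers, so the score is a scaled value or a mean and not a plain count of reads, and the scaling is not given in the sources used here. It is given below in these scaled tags. Both libraries of a genotype entered the calls together, so a score has no replicate error, and no difference below could be tested over replicates. How depth was set equal between the genotypes is likewise not stated, and the count of peaks in each direction depends on it.

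Methyl groups on lysines of histones H3 and H4 mark the state of chromatin. Methylation of H3K4, H3K36 and H3K79 accompanies transcription, whereas methylation of H3K9, H3K27 and H4K20 accompanies silencing or compaction. Writers with a SET domain, and DOT1L, which has none, add these groups from S-adenosylmethionine, and erasers of the flavin-dependent KDM1 family or of the JmjC family remove them. Several of these enzymes, among them KMT2D and SETD5, are tied to heart development or to syndromes with heart defects.

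A gene was counted as having a gained peak when the nearer edge of such a peak was no more than 3 kb from an annotated transcription start site (TSS) of that gene. Sequences of 7 peaks that overlap no annotated exon or UTR are shown. They are the highest-scoring peaks of the writers *Kmt5c*, *Setd2* and *Kmt2b* and of the eraser *Kdm4b*, the peak at an internal start of *Kdm4c*, the weakest of the strongest peaks, that of *Ezh1*, and the peak of *Kdm5b* that lay just beyond 3 kb. Each is given on mm10, 5′ to 3′ on the strand of its gene, which is the plus strand for *Kmt5c*, *Setd2*, *Kdm4b*, *Kdm4c* and *Kdm5b* and the minus strand for *Kmt2b* and *Ezh1*. Capitals mark matches on either strand to GGGCGG (the GC box of SP and KLF factors), CCAAT (the NFY box) or CACGTG (the E-box).
Kmt5c chr7:4739867-4740015: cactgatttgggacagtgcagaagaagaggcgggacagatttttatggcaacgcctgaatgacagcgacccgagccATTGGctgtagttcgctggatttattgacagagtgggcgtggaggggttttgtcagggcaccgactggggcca
Setd2 chr9:110532278-110532426: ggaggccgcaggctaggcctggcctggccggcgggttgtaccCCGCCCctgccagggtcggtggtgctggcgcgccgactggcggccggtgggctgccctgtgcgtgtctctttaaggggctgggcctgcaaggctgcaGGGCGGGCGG
Kmt2b chr7:30588861-30589009: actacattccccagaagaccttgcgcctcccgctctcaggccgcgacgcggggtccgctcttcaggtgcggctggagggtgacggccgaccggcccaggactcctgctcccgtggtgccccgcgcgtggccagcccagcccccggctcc
Kdm4b chr17:56325729-56325877: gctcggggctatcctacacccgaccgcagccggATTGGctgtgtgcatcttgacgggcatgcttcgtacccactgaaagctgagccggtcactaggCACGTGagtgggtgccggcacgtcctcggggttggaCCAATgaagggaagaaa
Kdm4c chr4:74251779-74251927: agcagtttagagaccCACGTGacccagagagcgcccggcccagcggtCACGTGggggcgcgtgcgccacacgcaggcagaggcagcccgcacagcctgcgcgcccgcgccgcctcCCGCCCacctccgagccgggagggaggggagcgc
Ezh1 chr11:101201165-101201313: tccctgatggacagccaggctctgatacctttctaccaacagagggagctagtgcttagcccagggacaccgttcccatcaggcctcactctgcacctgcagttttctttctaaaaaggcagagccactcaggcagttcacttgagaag
Kdm5b chr1:134556914-134557062: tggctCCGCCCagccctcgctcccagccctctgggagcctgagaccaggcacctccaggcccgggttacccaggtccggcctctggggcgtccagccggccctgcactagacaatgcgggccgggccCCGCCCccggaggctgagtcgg
The peaks of *Setd2* and *Kmt2b* were made largely of G and C, with 75.8% and 73.8% GC, and that of *Ezh1* was not, with 53.0% GC. The *Setd2* peak held 3 GC boxes, and the *Kmt5c* peak held a CCAAT box. The *Kdm4b* peak held 2 CCAAT boxes and an E-box, and the *Kdm4c* peak held 2 E-boxes and a GC box. In the *Kmt2b* and *Ezh1* peaks none of the 3 strings was found, which says only that these letters are not in these windows.

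The first question was how many of the enzyme genes gained open chromatin at a start site in *Smyd1-KO* hearts. Of the 41 genes, 37 had a gained peak within 3 kb of a TSS, or 90.2% (exact Clopper-Pearson 95% interval 76.9 to 97.3%), against 51.2% of all protein-coding genes. Both writers such as *Ezh2*, the main H3K27 methyltransferase of Polycomb complex PRC2, and erasers such as *Kdm1a*, the H3K4 demethylase LSD1, were among them. The genes without one were the H3K4 writer *Setd1b*, *Prdm2*, which was counted as an H3K9 writer, the H3K36 writer *Nsd2* and the H3K4 eraser *Kdm5b*. The interval covers counting error only, since genes are not replicates of a genotype. With a distance of 1 kb 36 genes counted (87.8%, against 48.1% of protein-coding genes), with the main TSS alone 34 (82.9%, against 47.2%), and with the TSSs of protein-coding transcripts alone 35 (85.4%, against 49.6%). Peaks that scored at or above the median of the list were found at 36 genes (87.8%, against 45.4%).

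Enzyme genes start in GC-rich DNA, and gained peaks were common there, so the share was set beside that of protein-coding genes of the same GC content. The 1 kb around the main TSS had a median GC content of 66.6% in the enzyme genes and 55.2% in all protein-coding genes. For each enzyme gene, all other protein-coding genes within 1 percentage point of its GC content were taken, and the mean share of these with a gained peak was 75.1%, which left a difference of 15.2 points. The enzyme genes also had more distinct annotated TSSs, with a median of 8 against 3, so that more of their sequence lay within reach of the rule. With genes matched on GC content and CpG content the share was 78.3% and the difference 12.0 points, and with genes matched on GC content and number of TSSs they were 80.7% and 9.52 points. When all 3 properties were matched together, a choice made after seeing the data, the share was 83.3% and the difference 6.92 points. Some enzyme genes had few matched genes. The smallest set held 1 gene in the joint matching (median 27) and 1 with GC and CpG content (median 166). With GC content and number of TSSs it held 5 genes (median 134). The shares of the last 3 matchings lay inside the counting interval given above, and that of matching on GC content alone lay below it. These differences are descriptions and were not tested.

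**Figure D1:**
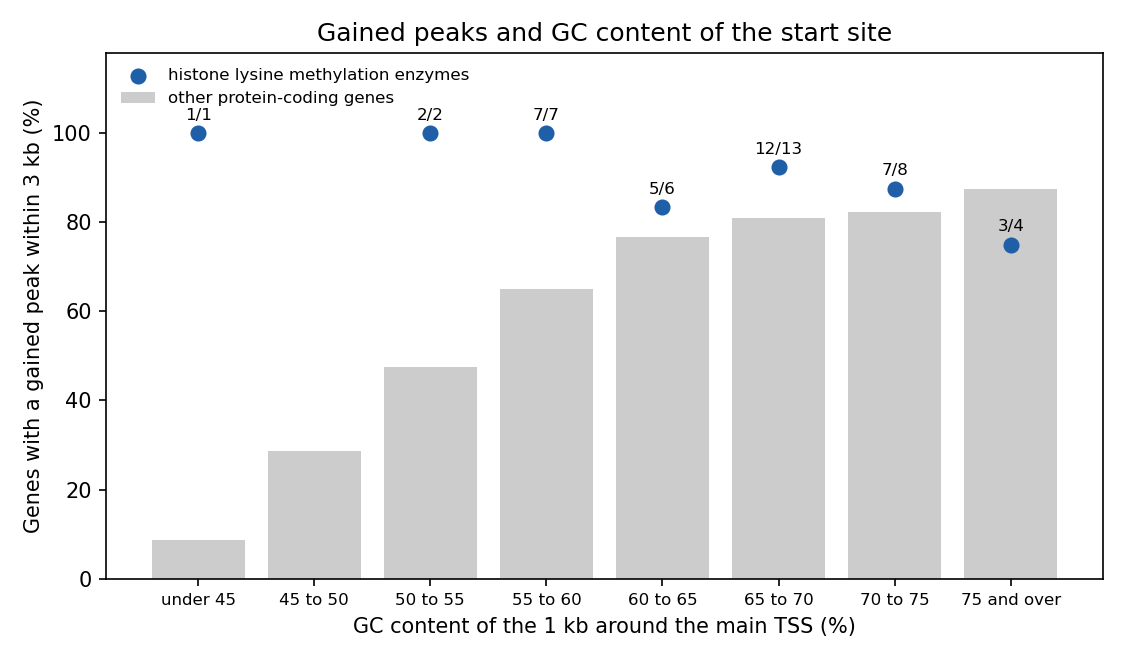
Share of genes with a gained peak within 3 kb of a TSS, in percent, by the GC content of the 1 kb around the main TSS; bars are protein-coding genes other than the 41 enzymes, points are the enzymes, and the fraction above each point is the number with a peak of the number in the class. The bars climb from 8.77% in the lowest class to 87.6% in the highest, and the enzymes sit at or above the bar in every class that holds any of them except the highest, where 3 of 4 had a peak.

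Across classes of GC content the share of other protein-coding genes with a gained peak rose from 8.77% below 45% GC to 87.6% at 75% GC and above. *Kdm4c*, a demethylase of H3K9 and H3K36, had the lowest GC content of the group, 42.0%, and genes of that GC content had a gained peak in 11.4% of cases. Its peak, of 649.5 tags, was not at the main TSS but at chr4:74251779-74251927, in an intron, 9 bp from the internal start of another protein-coding transcript, and this peak itself had 76.5% GC. The 4 genes without a peak had main starts of 60.0% GC (*Kdm5b*), 66.6% (*Prdm2*), 72.4% (*Setd1b*) and 80.0% (*Nsd2*).

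Writers and erasers were compared next. A gained peak was found at 24 of 27 writers, 88.9% (exact 95% interval 70.8 to 97.65%), and at 13 of 14 erasers, 92.9% (66.1 to 99.8%). The difference, writers minus erasers, was -3.97 points, and its Newcombe 95% interval ran from -21.9 to 21.4 points, so no difference could be seen at these numbers of genes. Among protein-coding genes of the same GC content the shares were 78.2% for the writers and 69.0% for the erasers, a difference of 9.20 points in the other direction. The eraser value was lowered by *Kdm4c*, whose matched share was 11.4% and whose peak was not at the main TSS used for matching. With a distance of 1 kb in place of 3 kb, the shares of writers and erasers were 88.9% and 85.7%, so the order of the classes turned. At 1 kb the GC-matched shares were 75.9% and 66.5%, and 48.1% of all protein-coding genes had a gained peak.

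How many tags the peaks held was looked at through the strongest peak of each gene. The median was 633 tags over the 37 enzyme genes with a peak (quartiles 366 and 849, range 100.5 to 1476.5, order-statistic 95% interval of the median 481.5 to 775), and 460.5 tags over all protein-coding genes with a peak (quartiles 292 and 693). Of the 37 genes, 25 lay above that median, 14 lay above the upper quartile and 4 below the lower quartile. The medians of writers and erasers were 621.5 and 649.5 tags. The enzyme genes had more peaks to choose the strongest from, 1.65 per gene with a peak against 1.28, and the part of this in the difference was not tested. The scores were also not matched on GC content, which was higher at the main starts of the enzyme genes.

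**Figure D2:**
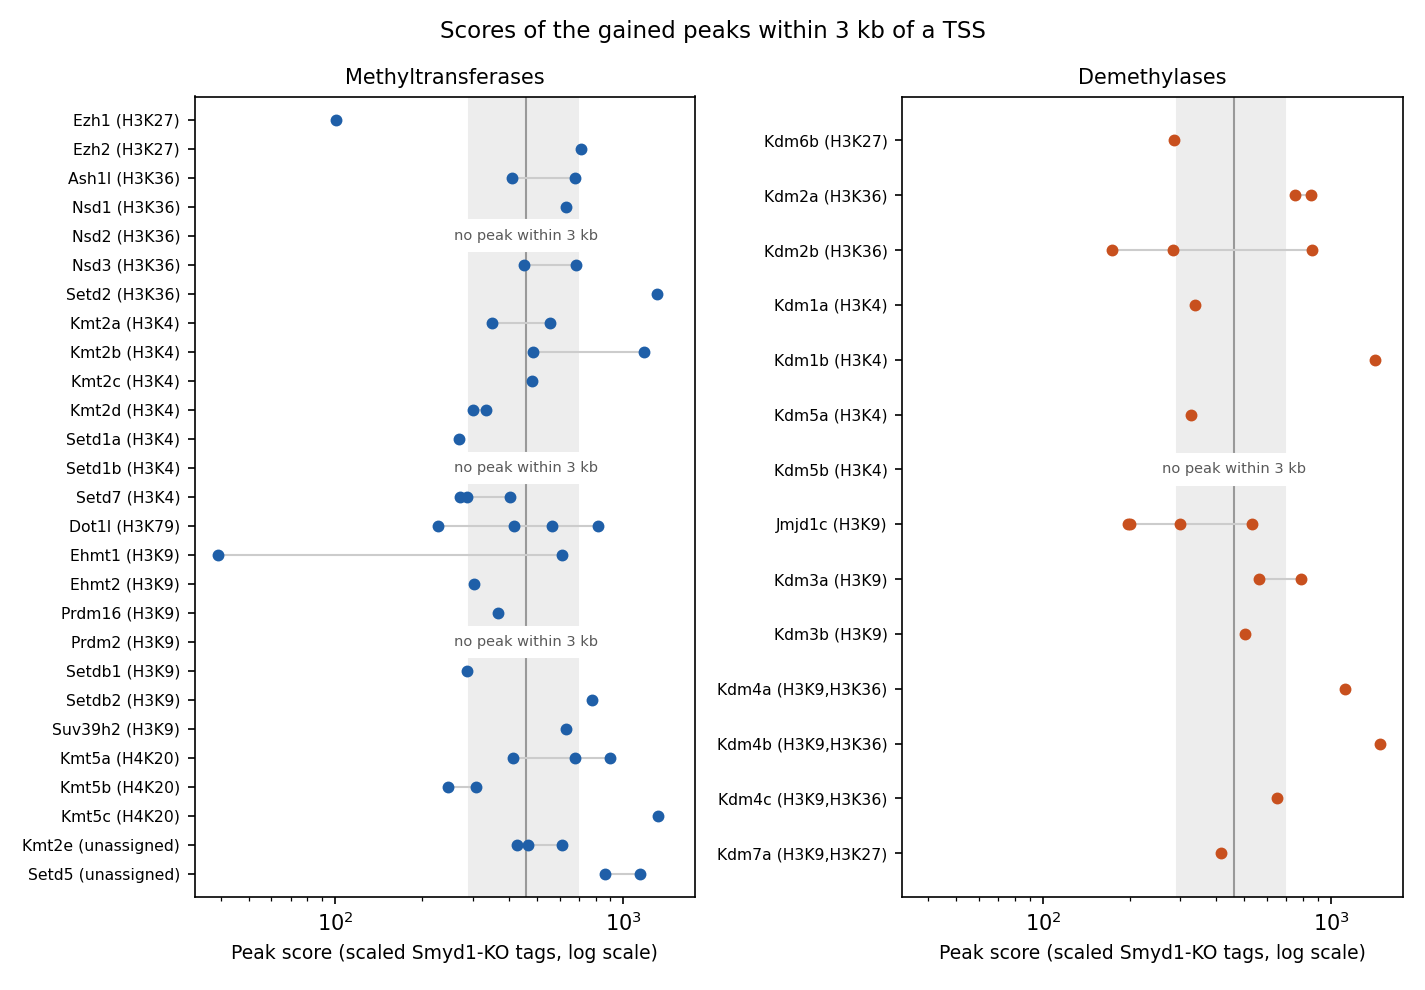
Score of every gained peak within 3 kb of a TSS for each of the 41 genes, in scaled *Smyd1-KO* tags on a log scale, with writers at left and erasers at right and the target residue after the name; the line and the grey band are the median and quartiles of the strongest peak over all protein-coding genes with a peak. The scores run from 39 tags (*Ehmt1*) to 1476.5 tags (*Kdm4b*), and 4 genes have no peak.

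Among the writers the 3 highest-scoring peaks belonged to *Kmt5c*, *Setd2* and *Kmt2b*. *Kmt5c* encodes a methyltransferase that adds the second and further methyl groups to H4K20, and its only peak, chr7:4739867-4740015, held 1313 tags and ended 100 bp upstream of the main TSS. *Setd2*, the enzyme that trimethylates H3K36 along transcribed genes, likewise had a single peak, chr9:110532278-110532426, with 1304 tags at 171 bp upstream. These 2 scores stood at the 98.4 and 98.35 percentiles of protein-coding genes with a peak.

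*Kmt2b*, an H3K4 methyltransferase of CpG-rich promoters, had peaks of 1177 tags at chr7:30588861-30589009 and of 483.5 tags at chr7:30589501-30589649, both intergenic and upstream, at 135 and 775 bp. The erasers with the highest scores were *Kdm4b*, *Kdm1b* and *Kdm4a*. *Kdm4b*, which removes methyl groups from H3K9 and H3K36, had the highest score of all 41 genes, 1476.5 tags at chr17:56325729-56325877, 185 bp upstream of a TSS and in the 99.4 percentile. *Kdm1b*, a flavin-dependent H3K4 demethylase, followed with 1418.5 tags at chr13:47043234-47043382, 117 bp upstream of its main TSS, in a stretch that also lies near the start of *Tpmt*. The *Kdm4a* peak, 1122.5 tags at chr4:118179988-118180136, covered a TSS and overlapped a UTR.

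The 3 weakest of the strongest peaks belonged to *Ezh1*, *Setd1a* and *Kdm6b*. *Ezh1*, the PRC2 methyltransferase of cells that no longer divide, had 1 peak of 100.5 tags at chr11:101201165-101201313. This peak was intronic and lay 222 bp from the start of a transcript annotated as not coding for protein, and its score was at the 3.89 percentile. *Setd1a*, a methyltransferase of H3K4, had a peak of 269 tags at chr7:127777713-127777861, 18 bp downstream of an alternative start. For *Kdm6b*, a demethylase of trimethylated H3K27, the peak held 284.5 tags at chr11:69401333-69401481 and lay 2734 bp downstream of a start that is likewise not that of a protein-coding transcript. *Ezh1* and *Kdm6b* were the 2 genes that counted through such a transcript alone.

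By target residue, 2 H3K4 genes, 1 H3K9 gene and 1 H3K36 gene had no peak within 3 kb, and the median strongest score was higher for the H3K36 than for the H3K4 enzymes. At 10 kb, where 59.6% of protein-coding genes had a gained peak, all 11 H3K4 and all 4 H3K27 genes had one, and the H3K9 and H3K36 counts stayed at 13 of 14 and 9 of 10. The residue assignments are textbook ones, an enzyme with 2 residues was counted under both, and no difference between residues was tested. The activity of *Jmjd1c*, *Prdm2* and *Prdm16* on H3K9 is debated, and *Prdm2* was the only gene of the H3K9 class without a peak. Of the 11 genes whose enzymes act on H3K4, 9 had a gained peak (81.8%), close to the 78.6% of GC-matched genes. These were 6 of 7 writers (85.7%, against 80.7%) and 3 of 4 erasers (75%, against 74.9%). Their median strongest score was 403 tags, with *Kdm1b* and *Kmt2b* far above it and *Kdm1a* at 336.5, *Kmt2d* at 334.5, *Kdm5a* at 327 and *Setd1a* at 269 tags.

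None of the 7 H3K4 writers had a peak that covered a TSS. Of all 41 genes 17 had one (41.5%), against 27.8% of all protein-coding genes and 37.0% of those of the same GC content. Among genes matched on GC content and number of TSSs the share was 44.9%, which is above that of the enzyme genes. In the KMT2 family, the MLL-type methyltransferases, all peaks lay upstream of the nearest start of their own gene. Each also lay within 3 kb of a start of a gene not annotated as protein-coding. The *Kmt2a* peaks were 85 and 867 bp away with 555.5 and 349 tags, and the *Kmt2d* peaks 492 and 955 bp away with 299.5 and 334.5 tags. *Kmt2c*, which like *Kmt2d* serves enhancer methylation, had 1 peak of 481.5 tags at 869 bp. *Setd7*, a monomethyltransferase of H3K4 and of other proteins, had peaks on both sides of its main start, at chr3:51559773-51559921 (287 tags), chr3:51560504-51560652 (403 tags) and chr3:51561343-51561491 (270.5 tags).

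**Figure D3:**
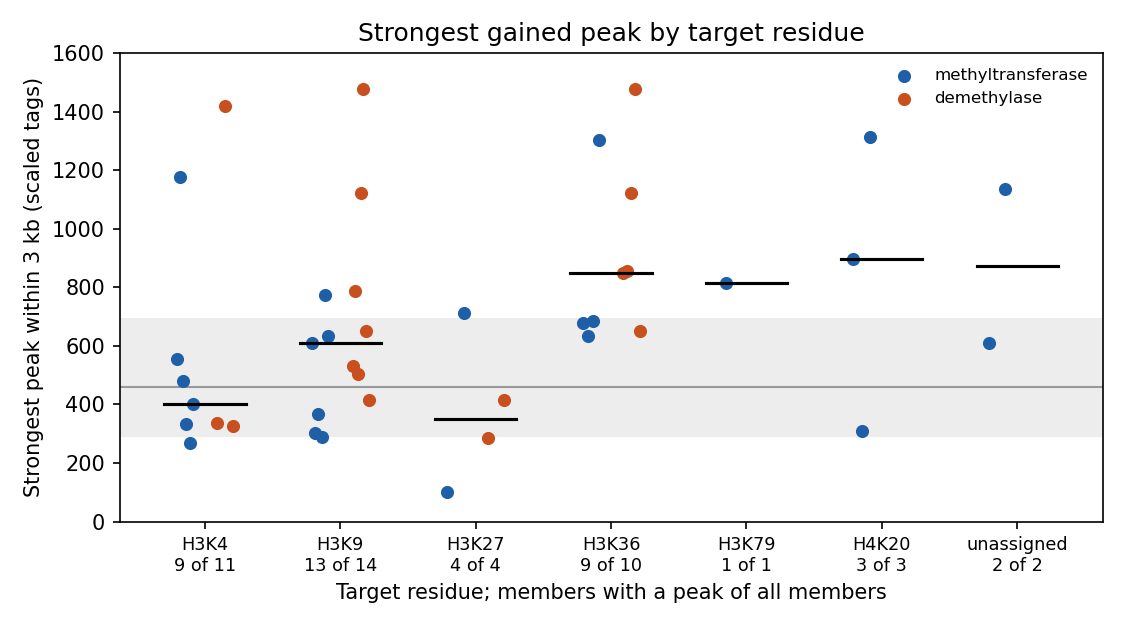
Score of the strongest gained peak within 3 kb, in tags, by target residue, one point per gene with a peak, writers in blue and erasers in orange; an enzyme with 2 residues appears under both, black bars are medians, and the grey line and band are the median and quartiles over all protein-coding genes with a peak. The 9 H3K36 genes run from 633 to 1476.5 tags, all above the line, and the 9 H3K4 genes from 269 to 1418.5 tags, with 5 of them below it.

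Of the 14 H3K9 genes 13 had a gained peak (92.9%, against 71.7% of GC-matched genes), with a median of 610 tags. All 7 erasers had one (against 68.2%, a matched share that *Kdm4c*, at 11.4%, lowered), with a median of 649.5 tags. Of the 7 writers 6 had one (85.7%, against 75.2%), with a median of 488 tags. Among the erasers of mono- and dimethylated H3K9, *Kdm3a* had 787 tags over its main start and *Kdm3b* had 503 tags. *Setdb1*, which silences retroelements with TRIM28, had 287.5 tags, *Ehmt2*, the G9a methyltransferase, 302 tags, and its partner *Ehmt1* 610 tags. *Suv39h2*, a methyltransferase of heterochromatin, had 633 tags and *Setdb2* had 775 tags. *Prdm16*, a zinc-finger regulator with a PR domain, had 366 tags near a start and 5 further gained peaks in the gene beyond 3 kb.

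All 4 H3K27 genes had a gained peak, against 73.3% of GC-matched genes, and their median was 349.5 tags. Of the 4, *Ezh1* and *Kdm6b* counted only through non-coding transcripts. The count was 3 of 4 at 1 kb, against 48.1% of all protein-coding genes. With peaks at or above the median score of the list it was 3 of 4, against 45.4%. *Ezh2* was the strongest of these, at 713.5 tags on its main start, and *Kdm7a*, which demethylates H3K9 and H3K27, had 414.5 tags. Of the 10 H3K36 genes 9 had a peak (90.0%, against 70.0% of GC-matched genes). The 4 of 5 writers (80.0%) were below their GC-matched share of 81.7%, and the 5 of 5 erasers were above theirs of 58.4%. That eraser value was lowered by *Kdm4c*, at 11.4%, whose peak was not at the main TSS used for matching. The matched shares of the other H3K36 erasers ran from 59.3% to 80.5%. The median strongest score of the H3K36 genes was 849 tags, with 680.8 tags for the writers and 857 tags for the erasers. The values of *Nsd1* (633 tags), *Ash1l* (678 tags), *Nsd3* (683.5 tags), *Kdm2a* (849 tags) and *Kdm2b* (857 tags) all stood above the protein-coding median. The genes of *Kmt5a*, *Kmt5b* and *Kmt5c*, which act on H4K20, had 896.5, 308.5 and 1313 tags. *Kmt2e* and *Setd5*, for which no target residue was assigned here, had 609.5 and 1137 tags. Both *Setd5* peaks also lay within 3 kb of the start of *Gt(ROSA)26Sor*, a non-coding gene.

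Values just inside and just outside the distance limit were as follows. Inside it were the farthest *Dot1l* peak, at 2912 bp, and the *Kdm6b* peak, at 2734 bp. Outside it was *Kdm5b*, a demethylase of trimethylated H3K4, whose nearest gained peak, chr1:134556914-134557062, was intergenic, lay 3109 bp upstream of the main TSS and held 1045.5 tags. The nearest peak of *Setd1b*, at chr5:123138346-123138494, lay 3699 bp upstream with 630.5 tags, and 4 further peaks lay between 6768 and 9705 bp away. At a distance of 10 kb both genes counted, which made 39 of 41 genes (95.1%, against 59.6% of protein-coding genes).

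*Prdm2*, a PR-domain protein counted as an H3K9 writer, and *Nsd2*, an H3K36 dimethyltransferase lost in Wolf-Hirschhorn syndrome, had no gained peak within 10 kb. The peak nearest to a *Prdm2* start was 15242 bp away with 49.5 tags. The gene held 2 gained peaks, one of them exonic with 783 tags at chr4:143162141-143162289, 32446 bp inside the nearest start. For *Nsd2* the nearest peak, with 714.5 tags, was 37897 bp away, at the start of *Letm1*.

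Several enzyme genes had more than 1 gained peak. At least 2 were found within 3 kb of a TSS at 16 of the 41 genes (39.0%), against 11.8% of protein-coding genes, 20.6% of those matched on GC content and 25.7% of those matched on GC content and number of TSSs. At least 3 were found at 6 genes (14.6%), against 2.16%, 3.93% and 5.73%. In all there were 61 peaks, 41 at writers and 20 at erasers, with a median score of 481.5 tags, against 395 tags for all gained peaks within 3 kb of a protein-coding TSS.

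*Dot1l*, the H3K79 methyltransferase, had 4 peaks. The strongest, 813.5 tags at chr10:80754990-80755138, was 68 bp upstream of the main TSS, and the others held 416 tags at chr10:80752146-80752294, 227.5 tags at chr10:80757836-80757984 and 564.5 tags at chr10:80774594-80774742, each more than 2 kb from the nearest start. *Jmjd1c*, a KDM3-family protein, also had 4, spread over 3 start regions. Those were 531.5 tags at chr10:67096336-67096484, 299 tags at chr10:67096907-67097055, 200.5 tags on the main TSS at chr10:67127194-67127342 and 198 tags at chr10:67185665-67185813.

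Separate starts carried the peaks of other genes too. *Kmt5a*, which adds the first methyl group to H4K20, had 896.5 tags at chr5:124439743-124439891, 412 tags at chr5:124445378-124445526 and 678.5 tags at chr5:124446611-124446759, each within 39 bp of a TSS of its own. *Kdm2b*, a CpG-binding H3K36 demethylase that recruits Polycomb complex PRC1, had its strongest peak, 857 tags at chr5:122900273-122900421, on an internal start of a protein-coding transcript. Its peak at chr5:122989254-122989402, near the 5′ end of the gene, held 284 tags, and one at chr5:122881329-122881477 held 174 tags. In contrast, the 3 *Kmt2e* peaks were lined up upstream of a single *Kmt2e* start, with 466 tags at chr5:23434256-23434404, 426.5 tags at chr5:23433829-23433977 and 609.5 tags at chr5:23433349-23433497. All 3 also overlapped an exon and lay within 3 kb of a start of *5031425E22Rik*, which is not annotated as protein-coding.

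**Figure D4:**
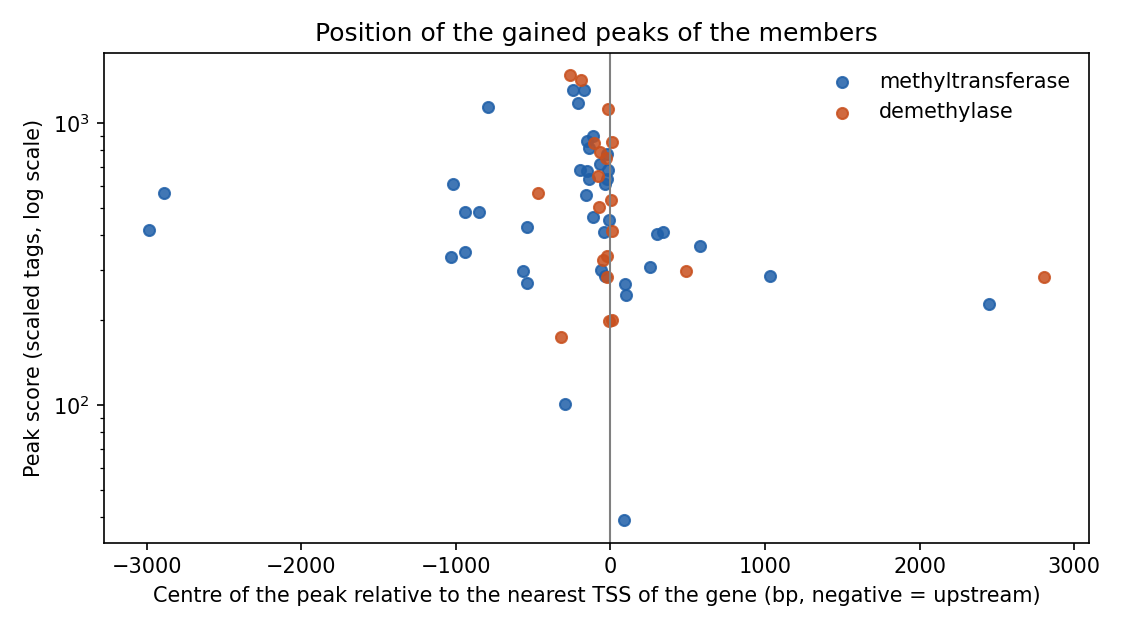
Score of each of the 61 gained peaks, in tags on a log scale, against the distance in bp from the centre of the peak to the nearest TSS of its gene, with negative values upstream; writers are blue and erasers orange. Most points sit just left of 0, and 46 of the 61 centres are upstream.

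The position of the peaks was set beside that of all gained peaks at protein-coding starts. The peak centre was upstream of the nearest TSS for 46 of 61 peaks (75.4%), against 65.3% of gene and peak pairs over all protein-coding genes, and the median centre was at -71 bp, against -44 bp. A TSS was covered by 21 peaks (34.4%, against 44.2%), and 43 peaks lay within 250 bp of one (70.5%, against 74.0%). Only 4 peaks (6.56%, against 11.9%) were beyond 1 kb, 3 of them at *Dot1l* and the other at *Kdm6b*. By annotation, 27 peaks overlapped a UTR, 10 another exon and 13 an intron, and 11 were intergenic.

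Some of the peaks stood at starts shared with a neighbour, so they cannot be assigned to 1 gene. A TSS of another protein-coding gene lay within 3 kb of 8 peaks. For 5 genes every peak was of this kind, namely *Kdm1b* (with *Tpmt*), *Kdm5a* (with *Ccdc77*), *Ash1l* (with *Dap3*), *Ehmt2* (with *C2*) and *Setdb2* (with *Cab39l*). Further peaks lay within 3 kb of a start of a gene not annotated as protein-coding. These were all peaks of *Kmt2a*, *Kmt2b*, *Kmt2c*, *Kmt2d*, *Kmt2e*, *Setd5* and *Setd7*. The only peaks of *Kdm4c*, *Kdm6b*, *Kdm7a*, *Kmt5c*, *Prdm16* and *Setdb1* and 1 peak of *Kdm2b* were of this kind too.

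*Setdb2*, *Ash1l* and *Kdm1b* are divergent from their neighbours, with starts 97, 208 and 289 bp apart. The *Setdb2* peak held 775 tags at chr14:59440824-59440972. The *Ash1l* peaks held 678 tags at chr3:88950395-88950543 and 411.5 tags at chr3:88950887-88951035. The peak of *Kdm5a*, a demethylase of trimethylated H3K4, held 327 tags at chr6:120363999-120364147, and that of *Ehmt2* 302 tags at chr17:34898335-34898483.

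The sequence under the 61 peaks was compared with that under all 12520 gained peaks within 3 kb of a protein-coding TSS. Median GC content was 69.8% against 65.8%, and observed CpG was 0.80 of that expected at the median, against 0.77. The GC box GGGCGG, searched like the other strings on both strands with overlaps counted, was found in 36 peaks of 27 genes (59.0%), against 50.4%. CCAAT was found in 15 peaks (24.6%, against 24.2%), among them those of *Ezh2*, *Kdm4a* and *Kdm4b*.

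CACGTG was found in 5 peaks (8.20%, against 4.36%), those of *Ehmt2*, *Kdm2a*, *Kdm4b*, *Kdm4c* and *Nsd3*. The ETS string CCGGAAG and the YY1 string AAGATGGC were found in 3 peaks each (4.92%, against 8.89% and 2.11%). The strings of CRE-binding factors (TGACGTCA, in 1.40% of peaks at protein-coding starts) and GATA factors (AGATAA, in 2.76%) were found in 0 of 61 peaks, which allows a share of up to 4.92%. A match describes the letters of a peak and says nothing of binding.

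In the other direction, 0 of the 41 genes had a WT-enriched peak within 3 kb of a TSS, which allows a share of up to 7.32%, against 5 protein-coding genes (0.0228%). The count was likewise 0 at 1 kb and at 10 kb, where 0.00456% and 0.0775% of protein-coding genes had such a peak. The nearest one was 562189 bp from a TSS, at *Kdm5b*. With only 106 peaks in that list, a loss of open chromatin at these genes was not detectable unless it passed the 2-fold limit. For *Smyd1* itself, 0 gained peaks lay near a start and 2 lay elsewhere in the gene.

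Genes that work with these enzymes, also chosen with earlier results of these data known, were counted in the same way. Of 56 partners and further enzymes, 49 had a gained peak (87.5%, exact 95% interval 75.9 to 94.8%), against 51.2% of all protein-coding genes and 65.5% of those of the same GC content. The partners, like the classes by residue, were not matched on number of TSSs, which narrowed the difference for the enzyme genes. All 13 listed partners from the COMPASS and MLL complexes, which hold H3K4 writers, had one, against 64.9% of GC-matched genes. So did all 7 listed genes of the LSD1-CoREST complex, which holds *Kdm1a*, against 60.3%. For PRC2 the count was 9 of 10 (90.0%, against 77.2%), without *Eed*, the subunit that reads trimethylated H3K27, and for partners and readers of H3K9 methylation 5 of 7 (71.4%, against 64.2%), without *Cbx1* and *Mphosph8*.

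For the partners of *Dot1l* the count was 3 of 4 (75%, against 63.0% of GC-matched genes), without *Mllt6*, whose nearest peak was 3017 bp away. For the PRC1 complex of *Kdm2b* it was likewise 3 of 4, without *Pcgf1*, below the GC-matched share of 82.2%. Of 11 further enzymes 9 had a peak (81.8%, against 54.8%), without *Kdm5c* and *Kdm5d*. *Kdm6a*, the X-linked relative of *Kdm6b*, had a peak of 815.5 tags.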

How the data were processed

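The ATAC-seq peaks were used as the authors deposited them. Per the labels and methods, the authors aligned reads to mm10 with BWA-MEM, called peaks with HOMER (v4.10.3) on the combined libraries of a genotype, kept those that differed at least 2-fold and annotated them with ChIP-Seeker (v1.20.0). The deposited value of a peak is a signal, a tag value over 149 bp from the combined libraries, scaled in steps of 0.5 in the gained list. Treatment of duplicates, multimapping reads and the Tn5 offset is not stated, and a common target depth is stated but the reads per library are not in the lists, so intervals and limits for a count of 0 (3 counts) cover counting error only. Pooling left 1 list per direction, so genotypes could not be compared over replicates and no p-value is given.

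TSSs of all transcripts were taken from GENCODE M21 on GRCm38, the sequence of mm10, without the mitochondrial genes, and coordinates count from 1. Distance was measured from the nearer edge of a peak. The main TSS was that of the first APPRIS principal transcript or, without one, the 5′ end of the gene. GC-matched shares used every other protein-coding gene within 1 point of GC in the 1 kb around the main TSS, with no random draw, averaged over members. CpG matching allowed 0.05 in the ratio of observed to expected CpG. Numbers of TSSs were matched in classes of 1, 2 to 3, 4 to 6, 7 to 10 and over 10. Shares have exact Clopper-Pearson 95% intervals. The assignment of peaks to genes was tested on simulated data. Python 3.11.15, pandas 2.3.3, numpy 2.4.6, scipy 1.17.1 and matplotlib 3.10.9 were used.

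Every enzyme is named by class. Values per peak are given for genes without a peak, the 3 strongest writers and erasers, the 3 weakest with a peak, genes with at least 3 peaks and genes with shared peaks alone. Other values named were chosen after they were seen. The enzymes, partners and strings were chosen with earlier results of these data known. Alternatives were other distances (1 and 10 kb), TSS sets, a score limit, other matching and other definitions of the score. A limit of 10% repeat-masked bases, joint matching on 3 properties and a median score without shared peaks were added after seeing the data.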

Additional observations from a re-analysis of the deposited data

How the results depend on the processing

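Shares, differences and the median score were held to the 95% interval of the reported value, and counts by residue to 1.5 times it. By these wide limits, which let a change of sign pass, 1 of 53 alternative values moved, namely the share of enzyme genes with a gained peak when peaks with over 10% repeat-masked bases were left out, a restriction chosen after seeing the data, which gave 73.2% (30 of 41 genes), against 41% of protein-coding genes and 59.3% of those of the same GC content. Under the other alternatives the share ran from 82.9% (main TSS alone) to 95.1% (10 kb), and its difference from genes matched on GC content from 6.92 to 20.1 points, lowest when GC content, CpG and number of TSSs were matched together. The difference of writers minus erasers changed sign with the setting, from -8.20 points without repeat-masked peaks to 6.61 points with the main TSS alone and 3.17 points at 1 kb, all inside its counting interval. The median strongest score was 621.5 tags without peaks near another protein-coding gene. No paired analysis was possible because the libraries of a genotype were pooled in the lists and no column carries a replicate number, and no replicate could be left out for the same reason. The same target depth is stated for every library, but the reads each one yielded are not in the lists, so how small a gain could be detected is unknown.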
